A study of Sus scrofa with 9 samples.

Results

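The insulin-like growth factor 1 (IGF1) axis was followed through deciduous molar development in miniature pigs as 9 genes: the ligand IGF1, its receptor IGF1R and the binding proteins IGFBP1 to IGFBP7. The members were chosen by symbol from a table of 34580 genes, in which all 9 were listed, 8 of them above 0 in at least 1 library. RNA of whole germs of the mandibular deciduous molar Dm3 from fetal miniature pigs was sequenced at embryonic day 40 (E40, cap stage), day 50 (E50, early bell stage) and day 60 (E60, late bell stage), and each stage has 3 libraries. The fetuses were taken by cesarean section from pregnant sows under ketamine chloride and xylazine anesthesia, and no other treatment is described. Nothing says how many germs, fetuses or sows each library holds. The comparisons ask how transcript levels differ as the cap stage passes into the bell stages.

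IGF1 is a secreted growth factor made in the liver under growth hormone and also locally in many growing tissues. It binds the receptor tyrosine kinase IGF1R, which signals through the PI3K-AKT and MAPK pathways and is expressed in the epithelium and mesenchyme of developing teeth. IGFBP1 to IGFBP6 bind IGFs with high affinity, holding them away from the receptor or carrying them to it, while IGFBP7 binds IGFs only weakly. IGFBP3 and IGFBP5 can form a ternary complex with an IGF and the acid-labile subunit (IGFALS), and proteases such as PAPPA2 cleave binding proteins and free the IGF.

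Levels are given as FPKM, fragments counted per length of transcript and per depth of the library, which allows genes of different length to be compared. From the steps between FPKM values of the same gene, the whole reads behind each value were recovered. The libraries fell into sets of very different depth: the 3 E50 libraries and E60 library 1 held 13840670 to 16167719 recovered reads, and the 3 E40 libraries and E60 libraries 2 and 3 held 681672 to 1204273. Between E40 and E50, the stage and the depth set therefore cannot be told apart. E50 can be compared with E60 within the deeper set only through E60 library 1, and E40 with E60 within the shallower set only through E60 libraries 2 and 3. Of the 11 tooth germ markers reported here, 10 were listed, all above 0 in at least 1 library, and the enamel protein AMBN was at 2181 to 10410 FPKM in the E60 libraries and at most 6.48 FPKM in the others. Liver, a main source of circulating IGF1 and of IGFBP1, was represented by ALB at 0 to 0.460, AFP at 0 to 0.335 and APOA2 at 0 to 0.288 FPKM, but of the same list APOA1 was at 16.7 to 68.2 and SERPINA1 at 1.04 to 35.6 FPKM. Whole germs are mixed tissue, so that fewer cells of a type and less RNA per cell cannot be told apart.

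The 9 genes spanned a wide range of levels, and between stages only neighbours in the order of mean FPKM changed places. At E40 the order was IGFBP5 (88.7 FPKM ± 24.2, SD, n = 3), IGFBP7 (54.0 ± 11.1), IGFBP4 (23.1 ± 5.84), IGFBP6 (19.4 ± 4.44), IGF1R (14.6 ± 3.04), IGFBP3 (4.93 ± 1.29), IGF1 (2.72 ± 0.154), IGFBP1 (1.70 ± 0.870) and IGFBP2 (listed at 0). The library ranges of IGFBP5 and IGFBP7 overlapped, as did those of IGFBP4 with IGFBP6, of IGFBP6 with IGF1R and of IGF1 with IGFBP1. At E50 the order was IGFBP5 (123.0 ± 14.3), IGFBP7 (94.1 ± 13.9), IGFBP4 (87.8 ± 21.7), IGF1R (21.8 ± 1.54), IGFBP6 (13.5 ± 3.95), IGFBP3 (1.57 ± 0.437) and IGF1 (0.949 ± 0.260), where IGFBP5 overlapped with IGFBP7, IGFBP7 with IGFBP4 and IGFBP3 with IGF1. At E60 IGFBP7 (110.1 ± 43.3) stood above IGFBP5 (79.3 ± 33.6) in each of the 3 libraries, although their ranges overlapped, followed by IGFBP4 (24.3 ± 16.3), IGFBP6 (16.8 ± 9.07), IGF1R (15.8 ± 5.09), IGF1 (2.70 ± 0.318) and IGFBP3 (1.45 ± 0.675). Here IGFBP4, IGFBP6 and IGF1R overlapped, and IGF1 lay above IGFBP3 in range as well as mean.

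Rank within a library does not depend on the scaling between libraries. Among the 19618 genes that passed the filter on low values, IGFBP5 lay between the 94.5 and 97.8 percentile of its library, IGFBP7 between 91.8 and 97.9, and IGFBP4 between 76.3 and 97.1. IGF1R lay between the 70.9 and 80.4 percentile and IGFBP6 between 60.4 and 87.9. The ligand stood much lower, between the 23.0 percentile in E50 library 1 and 41.9 in E60 library 2, and IGFBP3 lay between 14.5 and 51.3. The receptor was thus listed above its ligand in every library. In RefSeq, IGF1R overlaps PGPEP1L and both IGF1 and IGFALS overlap an unnamed locus, and reads from such shared stretches cannot be told apart where strand was not used in counting, which is not given in the sources used here.

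**Figure D1:**
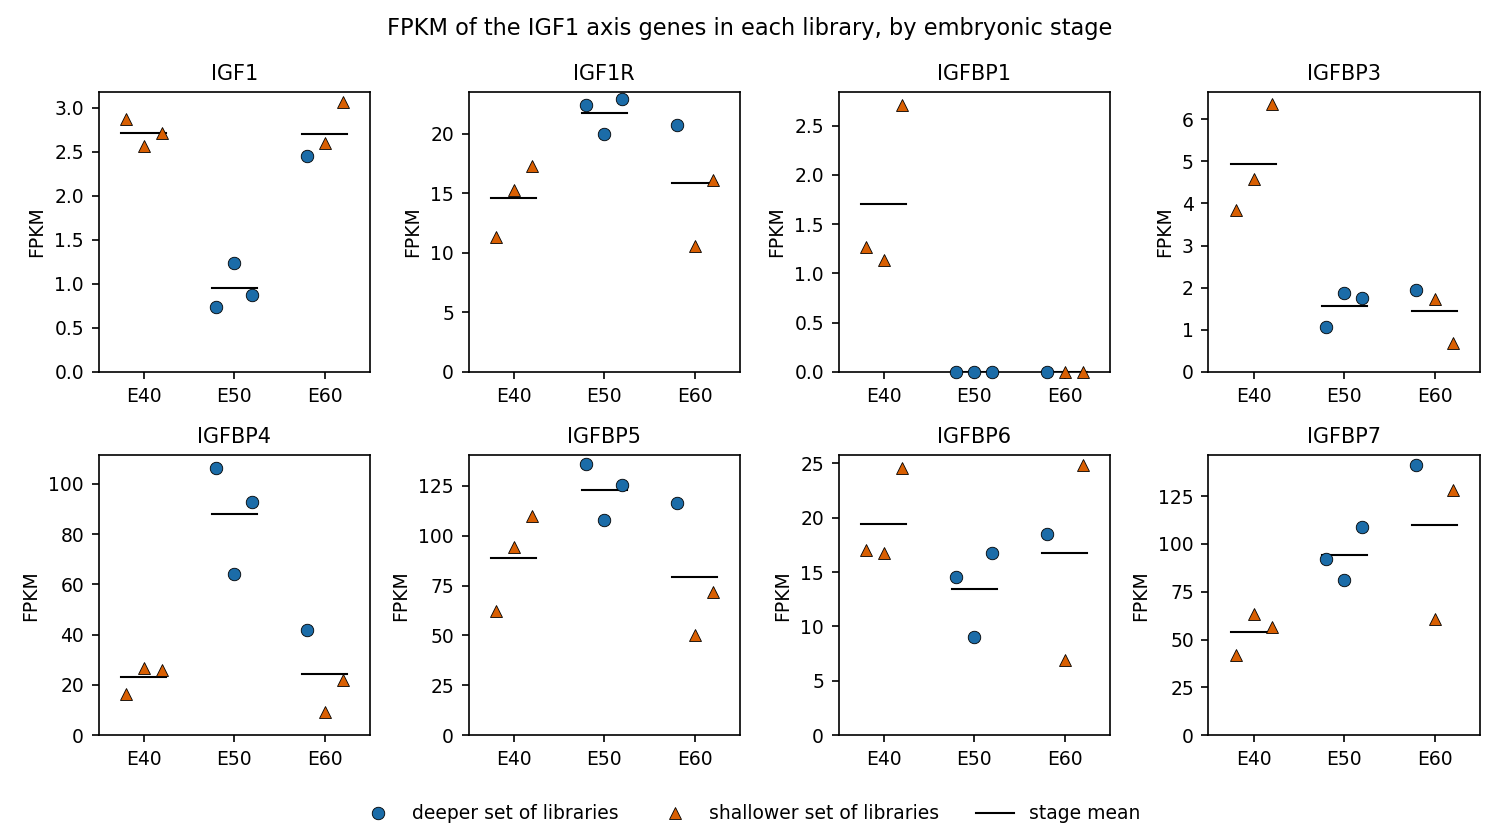
FPKM of IGF1, IGF1R and 6 binding proteins (vertical axes, starting at 0) in each of the 9 libraries by embryonic stage; circles are the 4 libraries of the deeper set, triangles the 5 of the shallower set, and lines are stage means. IGF1 lies at 0.735 to 1.24 FPKM in the E50 libraries and at 2.45 to 3.06 FPKM in all others, and IGFBP4 is highest in the E50 libraries at 64.1 to 106 FPKM.

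Fold changes were tested with limma on log2(FPKM + 0.1), a scale on which the changes of weakly listed genes come out too small, in a fit over all 9 libraries. A gene was called when its Benjamini-Hochberg adjusted p was under 0.05 and its log2 fold change was at least 1 in either direction. Because E60 library 1 lay in the deeper set, values without it are given beside those of the 9 libraries. All members except IGFBP2 reached an FPKM of 1 or more in 2 or more libraries, the filter used, so that 8 of 9 were tested.

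From E40 to E50, 1 member was called higher (IGFBP4) and 3 lower (IGF1, IGFBP1 and IGFBP3) among the 8 tested. Over all genes tested, 16.8% were called higher and 21.8% lower, and no result about the members as a set is read from these counts. Over the 8 libraries without E60 library 1, the same 4 members were called, against 30.5% of all genes higher and 24.2% lower. Taken over the 8 members the median log2 fold change was -0.02, and over all genes it was 0.55. A median-ratio scaling, which took that median of all genes to -0.09, gave 2392 genes higher and 4878 lower in place of 3296 and 4284, and called IGFBP6 lower as well. Between E50 and E60, no member was called over the 9 libraries, where 0.0510% of all genes were called higher and 0.0204% lower. At an unadjusted p under 0.05 there were 2 members (IGF1 and IGFBP4) of 8 and 5923 of 19618 genes, and limma-voom on the recovered reads also called no member. Without E60 library 1, IGF1 was called higher and IGFBP4 and IGFBP5 lower, against 20.0% of all genes higher and 39.1% lower. Both of these comparisons use the same E50 libraries. Under median-ratio scaling of those 8 libraries, the counts over all genes turned from 3907 higher and 7622 lower to 4949 higher and 2499 lower, IGF1 and IGFBP6 were called higher and IGFBP4 lower. Between E40 and E60, IGFBP1 alone was called, lower, against 0.663% of all genes higher and 1.14% lower. IGFBP1 passed the filter only through the E40 libraries, on 1, 1 and 3 reads, so that all its calls are given as a description. Without E60 library 1, IGFBP1 and IGFBP3 were called lower, against 1.37% of all genes higher and 4.68% lower. There IGFBP3 rests on 2 and 1 reads in E60 libraries 2 and 3, so that this call too is a description.

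**Figure D2:**
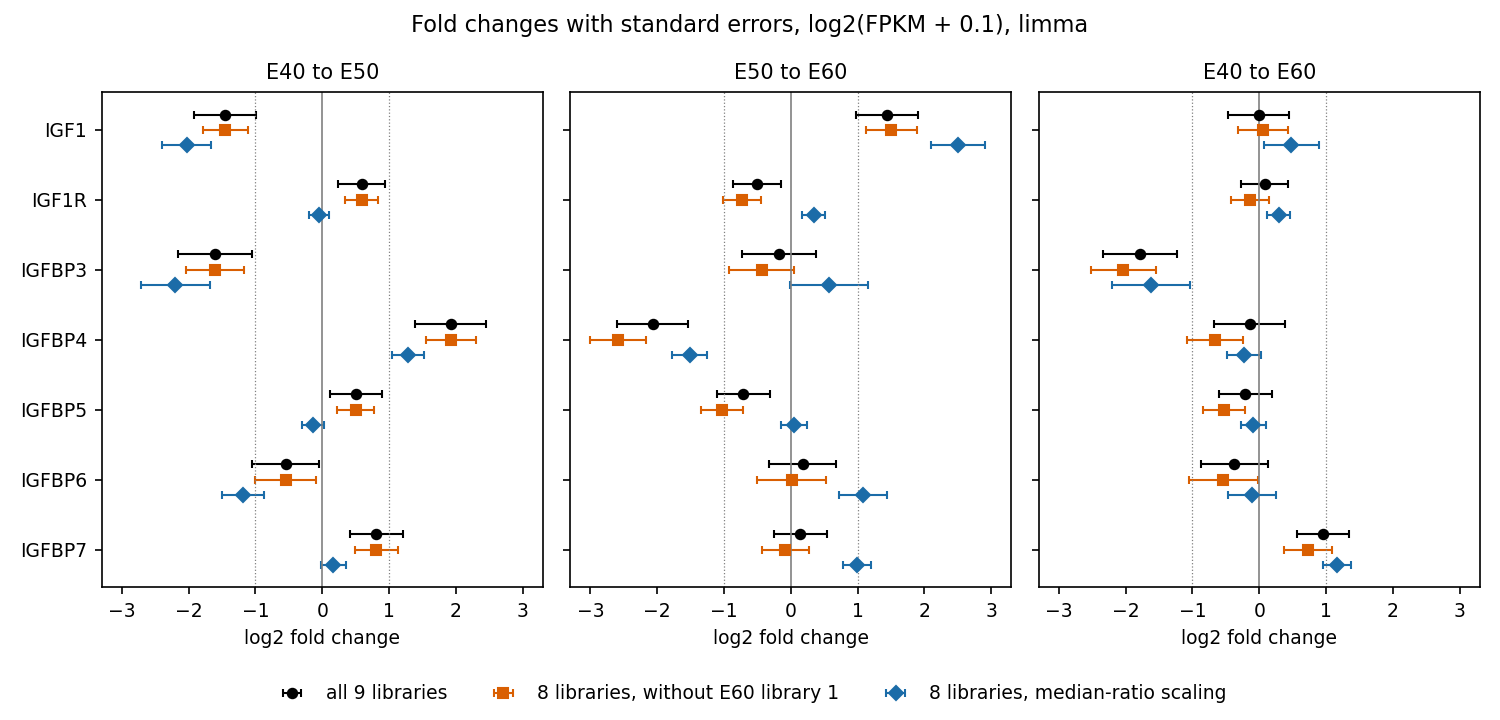
Log2 fold changes (horizontal axes) with standard errors of 7 members in the comparisons of stages, from limma over all 9 libraries, with E60 library 1 left out, and over the remaining 8 after median-ratio scaling; dotted lines mark a log2 fold change of 1 in either direction. IGF1 lies to the left of 0 from E40 to E50 and to the right from E50 to E60 under each of these settings, IGFBP4 the other way, and IGF1R and IGFBP5 change sides of 0 with the scaling.

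IGF1 itself was low throughout. Its FPKM was 2.87, 2.56 and 2.71 in E40 libraries 1, 2 and 3, 0.735, 1.24 and 0.875 in the E50 libraries, and 2.45, 2.60 and 3.06 in the E60 libraries. The E50 values lay below every E40 and E60 value, including that of E60 library 1, which has the depth of the E50 libraries. IGF1 fell from E40 to E50 by 1.45 on the log2 scale (SE 0.46, limma, Benjamini-Hochberg adjusted p = 0.0362 over 9 libraries and 0.00580 over 8). Its log2 fold change between E50 and E60 was 1.44 (limma, Benjamini-Hochberg adjusted p = 0.164) in all 9 libraries and 1.51 (0.00837) without E60 library 1. Within the deeper set, where E60 is a single library, it was 1.31.

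Few reads stand behind these IGF1 levels at E40. They numbered 3, 3 and 4 at E40, 12, 23 and 14 at E50, 44 in E60 library 1, and 4 and 6 in E60 libraries 2 and 3, against a floor of 3 reads. Pooled over the libraries, IGF1 stood at 2.71 FPKM at E40 (95% exact Poisson interval 1.30 to 4.98), 0.963 at E50 (0.712 to 1.27), 2.45 in E60 library 1 (1.78 to 3.29) and 2.86 in E60 libraries 2 and 3 (1.37 to 5.26). The E50 interval did not overlap the others, though such intervals cover counting error only. The call from E40 to E50 was lost without any single E40 or E50 library, with an adjusted p between 0.0723 and 0.119 in limma (Benjamini-Hochberg) and a log2 fold change between -1.64 and -1.30. Between E40 and E60 the log2 fold change was -0.01 (SE 0.46).

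The other ligands of this family gave no comparison. IGF2, the fetal counterpart of IGF1, and INS were listed at 0 in all 9 libraries. A value of 0 here cannot be read as a lack of transcript, since the housekeeping gene HPRT1 was also listed at 0 throughout, and of 15424 genes with a RefSeq protein-coding symbol 1136 were listed at 0 in every library.

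IGF1R was measured far more firmly, with 45 to 120 reads in the shallower libraries and 1390 to 1419 in the deeper. Its FPKM was 11.3, 15.3 and 17.3 at E40, 22.4, 20.0 and 22.9 at E50, and 20.8, 10.6 and 16.1 at E60. The E50 values lay above all the E40 values, and E60 library 1 lay close to the E50 libraries. No call was made: between E40 and E50 the log2 fold change came to 0.59 (SE 0.35, limma, Benjamini-Hochberg adjusted p = 0.196), near the 0.55 of the median gene, and -0.07 after median-ratio scaling. Between E50 and E60 it came to -0.51 with all 9 libraries, -0.73 when E60 library 1 was left out and -0.06 within the deeper set, and from E40 to E60 it was 0.08.

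The related receptors were lower than IGF1R in every library. INSR, the insulin receptor, had 4.69 to 7.45 FPKM at E40, 8.44 to 11.9 at E50, and 8.77, 2.38 and 3.50 at E60, so that IGF1R stood 1.88 to 4.59 times above it. IGF2R, which takes IGF2 up for degradation, had 0.766 to 4.22 FPKM, and IGF1R stood 5.06 to 13.8 times above it. Neither was called over the 9 libraries, and INSR was lower by a log2 fold change of -1.70 (limma, Benjamini-Hochberg adjusted p = 0.00260) from E50 to E60 without E60 library 1 but by -0.14 within the deeper set. INSRR, at 0.334 to 1.04 FPKM, did not pass the filter.

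The growth hormone receptor GHR, through which growth hormone induces IGF1, had 8.21 to 12.1 FPKM in the deeper libraries and 1.57 to 2.96 in the shallower. Its FPKM was 2.21, 2.96 and 1.57 at E40, 9.14, 11.1 and 12.1 at E50, and 8.21, 2.63 and 2.95 at E60. GHR rose from E40 to E50 by a log2 fold change of 2.25 (SE 0.52, limma, Benjamini-Hochberg adjusted p = 0.0148), and by 1.59 after median-ratio scaling. E60 library 1 lay below the E50 values but far above E60 libraries 2 and 3, and the log2 fold change from E50 to E60 was -1.90 without E60 library 1 and -0.38 within the deeper set. GH1, encoding growth hormone, was above 0 in 1 library, at 0.168 FPKM.

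The low-abundance binding proteins, IGFBP1 and IGFBP3, had their highest values at E40. In the RefSeq annotation they are neighbours on the chromosome. IGFBP1, a liver-made and hormone-regulated IGF carrier, was at 1.27, 1.14 and 2.71 FPKM at E40 and listed at 0 in every E50 and E60 library. These values are 1, 1 and 3 reads, at or under the floor of 3 reads, so that no fold is given for it, and it passed the filter only through the E40 libraries. Pooled, it stood at 1.80 FPKM at E40 (95% exact Poisson interval 0.585 to 4.20). By the same interval, 0 reads allow up to 0.0964 FPKM at E50. They allow up to 0.273 FPKM in E60 library 1 and up to 1.40 FPKM in E60 libraries 2 and 3. The E40 interval thus overlapped what the shallower E60 libraries allow but not what the deeper libraries allow. The calls of IGFBP1 rest on these 5 reads: the call from E40 to E50 was lost without E40 library 1 or E50 library 2 or 3, with an adjusted p between 0.0501 and 0.0541 in limma (Benjamini-Hochberg). That from E40 to E60 was lost without any single library other than E60 libraries 1 and 2, with an adjusted p between 0.0677 and 0.0980 by the same test.

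IGFBP3, the main carrier of IGF1 in serum, had 3.84, 4.58 and 6.36 FPKM at E40, 1.07, 1.87 and 1.76 at E50, and 1.94, 1.74 and 0.683 at E60. All 3 E40 values lay above all 6 later values, and E50 and E60 overlapped. IGFBP3 fell from E40 to E50 by 1.60 on the log2 scale (SE 0.55, limma, Benjamini-Hochberg adjusted p = 0.0466 over 9 libraries and 0.0125 over 8). The reads numbered 3, 4 and 7 at E40, 13, 26 and 21 at E50, 26 in E60 library 1, and 2 and 1 in E60 libraries 2 and 3. Pooled levels were 5.08 FPKM at E40 (95% exact Poisson interval 2.78 to 8.53), 1.58 at E50 (1.20 to 2.03), 1.94 in E60 library 1 (1.27 to 2.84) and 1.15 in E60 libraries 2 and 3 (0.237 to 3.36). The E40 interval overlapped slightly with that of E60 library 1 and with that of E60 libraries 2 and 3.

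The IGFBP3 call from E40 to E50 was lost without any single E40 or E50 library, with an adjusted p between 0.0846 and 0.150 in limma (Benjamini-Hochberg) and a log2 fold change between -1.76 and -1.36. From E40 to E60 the log2 fold change was -1.78 (SE 0.55, adjusted p = 0.169) in all 9 libraries and -2.03 (0.0477) without E60 library 1 in limma (Benjamini-Hochberg), and -2.03 (0.137) within the shallower set. Its E50 to E60 value was -0.18 in the 9 libraries and 0.33 within the deeper set. E60 libraries 2 and 3 hold 2 and 1 reads of IGFBP3, under the floor of 3 reads. Its folds and its call that rest on these libraries are therefore given as a description.

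IGFBP4, which mostly restrains IGF action until it is cleaved, was the member that varied most among the abundant ones. Its FPKM was 16.4, 26.8 and 26.1 at E40, 106, 64.1 and 92.9 at E50, and 41.7, 9.28 and 21.8 at E60. All E50 values lay above all others, and E60 library 1 stood between them and the remaining E60 libraries. The reads numbered 12, 22 and 27 at E40 and 834 to 1218 at E50. IGFBP4 rose from E40 to E50 by a log2 fold change of 1.92 (SE 0.53, limma, Benjamini-Hochberg adjusted p = 0.0235 over 9 libraries and 0.00224 over 8), and by 1.26 after median-ratio scaling. Without E40 library 1 or 2, or any single E50 library, the adjusted p in limma (Benjamini-Hochberg) lay between 0.0550 and 0.0829, with a log2 fold change between 1.69 and 2.14.

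Between E50 and E60, the log2 fold change of IGFBP4 was -2.07 (SE 0.53, limma, Benjamini-Hochberg adjusted p = 0.164) in all 9 libraries and -2.58 (0.000946) without E60 library 1. Within the deeper set it was -1.04 (SE 0.28, limma, Benjamini-Hochberg adjusted p = 0.00836), where E60 is a single library that is assumed to vary like the E50 libraries. Its E40 to E60 value was -0.15 (SE 0.53). Markers of other cell types were also higher at E50 than at E40. Of 5 endothelial markers fixed, the 3 listed (PECAM1, KDR and TEK) summed to 17.9 to 20.9 FPKM at E40, 50.8 to 55.0 at E50, and 61.1, 16.3 and 28.3 at E60. In E60 library 1 the endothelial sum lay above its E50 values, while IGFBP4 lay below its own. Of 6 blood markers fixed, the 5 listed summed to 227 to 393, 729 to 1028, and 675, 94.6 and 349 FPKM, nearly all of it HBB. Housekeeping genes followed this course too. Of 12 fixed, the 10 listed summed to 8827 to 13168 FPKM at E40, 22945 to 27714 at E50, and 21251, 5097 and 12363 at E60. Among them RPL13A went the other way, with a mean of 2060 FPKM at E40 and 1843 at E50, and HPRT1 was listed at 0 throughout. The part of these markers and of scale in the result was not tested.

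IGFBP5, a binding protein that also attaches to extracellular matrix, had 62.2, 94.5 and 110 FPKM at E40, 136, 108 and 125.4 at E50, and 116, 50.2 and 71.6 at E60. The stages overlapped, with E60 library 1 within the E50 range. Between E40 and E50 its log2 fold change was 0.50 (SE 0.39, limma, Benjamini-Hochberg adjusted p = 0.308) and -0.16 after median-ratio scaling. The E50 to E60 value was -0.71 in the 9 libraries, -1.03 without E60 library 1, where it was called (limma, Benjamini-Hochberg adjusted p = 0.0195), 0.05 in those 8 libraries after median-ratio scaling and -0.08 within the deeper set. IGFBP5 and IGFBP2 are neighbours on the chromosome in RefSeq, and IGFBP2 was listed at 0 in all 9 libraries.

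IGFBP6, which prefers IGF2 over IGF1, showed no call over the 9 libraries. Its FPKM was 17.0, 16.7 and 24.6 at E40, 14.6, 9.07 and 16.7 at E50, and 18.5, 6.95 and 24.8 at E60, so that the E60 libraries spanned the whole range of the other stages. Its E40 to E50 log2 fold change was -0.55 (SE 0.50, limma, Benjamini-Hochberg adjusted p = 0.380), and -1.21 (0.0269) after median-ratio scaling.

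IGFBP7 had 41.8, 63.7 and 56.6 FPKM at E40, 91.9, 81.4 and 109 at E50, and 141, 60.8 and 128 at E60. All E50 values lay above all E40 values, and E60 libraries 1 and 3 held the highest values of the series while E60 library 2 lay within the E40 range. Its log2 fold change was 0.81 between E40 and E50 (SE 0.39, limma, Benjamini-Hochberg adjusted p = 0.122) and 0.96 (SE 0.39, adjusted p = 0.257) between E40 and E60, with no call. After median-ratio scaling the log2 fold change from E40 to E60 was 1.07 (SE 0.20), past the limits (limma, Benjamini-Hochberg adjusted p = 0.0267), and without E60 library 2 it was 1.34 (0.0285). Within the shallower set it was 0.73 (SE 0.39, adjusted p = 0.356), by the same limma test with Benjamini-Hochberg adjustment. Its E50 to E60 value was 0.14 in the 9 libraries and 0.60 (SE 0.28) within the deeper set. After median-ratio scaling it was 0.92 (SE 0.20, limma, Benjamini-Hochberg adjusted p = 0.153), and 0.996 (0.00489) without E60 library 1, just under the limit of 1 on the log2 scale.

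Because libraries differ in scale, the make-up of the binding proteins within each library was also described, as the share of each in the summed FPKM of the 7 IGFBP genes. The sum was 142.5, 207.4 and 226.0 FPKM at E40, 350.0, 264.1 and 345.7 at E50, and 319.7, 129.0 and 247.3 at E60. A share does not depend on the scaling between libraries, but falls when another gene of the sum rises, and no test was made on it.

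IGFBP5, IGFBP7, IGFBP4 and IGFBP6 made up nearly all of the sum at every stage. The share of IGFBP4 was 11.5%, 12.9% and 11.6% at E40, 30.4%, 24.3% and 26.9% at E50, and 13.0%, 7.20% and 8.83% at E60, so that the E50 libraries stood apart from all others, E60 library 1 included. The share of IGFBP7 was 29.4%, 30.7% and 25.1% at E40, 26.3%, 30.8% and 31.5% at E50, and 44.2%, 47.1% and 51.9% at E60. All 3 E60 libraries, from both depth sets, lay above the other 6. IGFBP5 averaged 45.9% ± 2.46 (SD, n = 3) at E40, 38.6% ± 2.26 at E50 and 34.7% ± 5.17 at E60, and the E50 and E60 ranges overlapped.

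IGFBP6 and IGFBP3 had their lowest mean share at E50, where that of IGFBP4 was highest. IGFBP6 averaged 10.3% ± 2.01 (SD, n = 3), 4.15% ± 0.702 and 7.08% ± 2.58 at E40, E50 and E60, and IGFBP3 averaged 2.57% ± 0.323, 0.508% ± 0.202 and 0.745% ± 0.550. Ratios between single pairs gave the same picture without the sum. The ratio of IGFBP7 to IGFBP5 was 0.517 to 0.674 at E40, 0.676 to 0.869 at E50, and 1.22, 1.21 and 1.79 at E60. The ratio of IGFBP4 to IGFBP7 was 0.392 to 0.462, 0.787 to 1.16, and 0.295, 0.153 and 0.170. The ratio of IGFBP4 to IGFBP5 was 0.239 to 0.284, 0.595 to 0.783, and 0.359, 0.185 and 0.305.

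**Figure D3:**
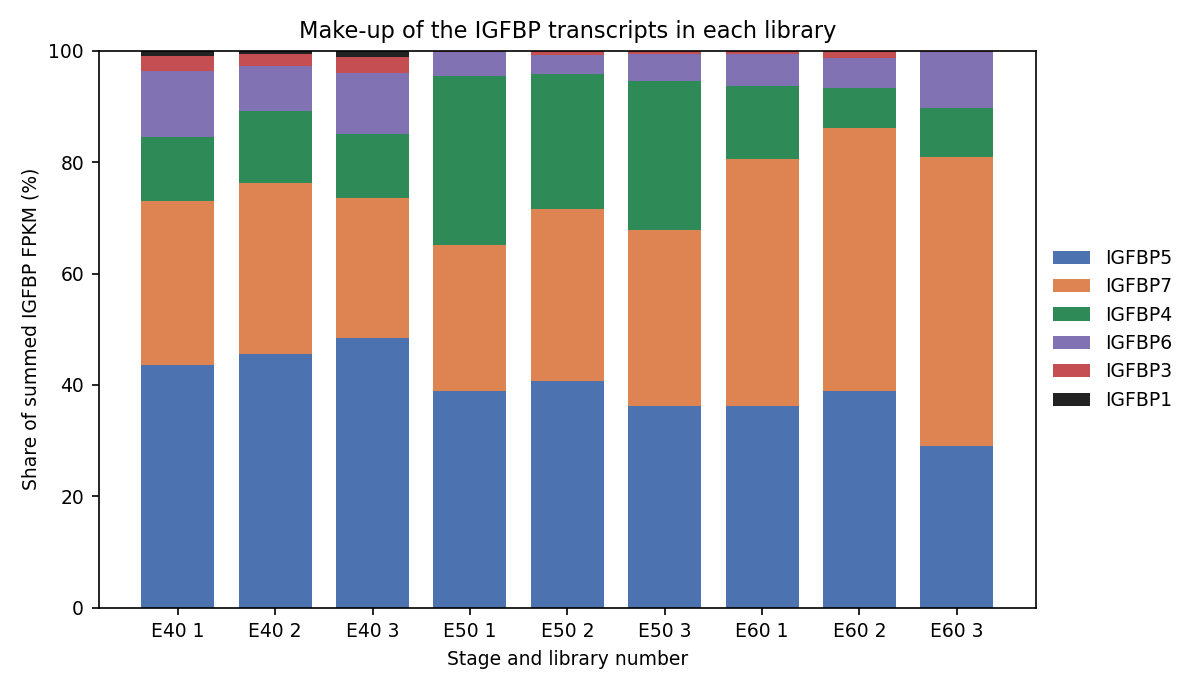
Share (%) of each binding protein in the summed FPKM of IGFBP1 to IGFBP7 (vertical axis, stacked bars) in each library; IGFBP2, listed at 0, has no bar. IGFBP4 takes 24.3% to 30.4% in the E50 libraries and at most 13.0% elsewhere, and IGFBP7 takes 44.2% to 51.9% in the E60 libraries and at most 31.5% before.

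Among the partners of the axis, IGFALS, the acid-labile subunit of the ternary complex with IGF and IGFBP3 or IGFBP5, was lowest at E50, as was IGF1. Its ratio to IGF1 was between 0.677 in E50 library 2 and 2.41 in E40 library 2. Its FPKM was 6.39, 6.18 and 5.28 at E40, 1.40, 0.838 and 1.08 at E50, and 3.81, 4.70 and 6.81 at E60. The E50 values lay below all others, and E60 library 1 stood with the other E60 libraries although its depth is that of the E50 libraries. IGFALS fell from E40 to E50 by 2.35 on the log2 scale (SE 0.44, limma, Benjamini-Hochberg adjusted p = 0.0124). Its log2 fold change between E50 and E60 was 2.10 (adjusted p = 0.164) in all 9 libraries and 2.28 (0.000714) without E60 library 1, in limma (Benjamini-Hochberg). Within the deeper set, where E60 is a single library, it was 1.72. The reads of IGFALS numbered 12 to 14 at E40, 28 to 41 at E50, and 123, 13 and 24 at E60. Pooled levels were 5.88 FPKM at E40 (95% exact Poisson interval 4.18 to 8.04), 1.09 at E50 (0.889 to 1.33), 3.81 in E60 library 1 (3.17 to 4.54) and 5.88 in E60 libraries 2 and 3 (4.14 to 8.11).

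PAPPA2, a metalloproteinase that cleaves IGFBP3 and IGFBP5, was at 2.67, 3.23 and 4.73 FPKM at E40, 0.586, 0.525 and 0.460 at E50, and 0.266, 0.130 and 0 at E60. The stages did not overlap. PAPPA2 reached an FPKM of 1 in the E40 libraries and in no other, so that it passed the filter only through the stage where it is high, and its calls as lower at E50 and at E60 are given as a description. E60 libraries 2 and 3 hold 1 and 0 reads of it, under the floor, so that no fold is given against E60, while E60 library 1 holds 24 reads (0.266 FPKM, 95% exact Poisson interval 0.170 to 0.396) against 134 in the E50 libraries (0.524, 0.439 to 0.621). STC1 and STC2, which inhibit proteases of this family, had 0.885 to 5.57 and 3.05 to 4.56 FPKM at E40. Later they had at most 1.33 and 2.70 FPKM, with no call in limma over the 9 libraries before scaling. After median-ratio scaling STC2 was called lower from E40 to E50 (log2 fold change -1.60, limma, Benjamini-Hochberg adjusted p = 0.0297). STC1, on 3, 5 and 1 reads at E40, was called lower from E40 to E60 in limma-voom (-3.00, Benjamini-Hochberg adjusted p = 0.0477). Without E60 library 1 it was called lower from E40 to E50 (-1.78, limma, Benjamini-Hochberg adjusted p = 0.0496). IGFBPL1 had 0.141 to 2.17 FPKM and no call in limma over the 9 libraries. PAPPA and HTRA1 were not analysed here.

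Skeletal muscle markers moved with the genes that were highest at E40: of 6 fixed, 4 were listed, CKM and TNNT3 at 0 in every library, and the other 2 summed to 38.6 to 57.4 FPKM at E40, 4.58 to 5.88 at E50 and 3.36 to 9.59 at E60. Of these, ACTA1 had 21.3 to 32.8 FPKM at E40, 3.87 to 4.91 at E50, and 2.44, 1.65 and 4.54 at E60. MYOG had 15.5 to 24.6 FPKM at E40, 0.710 to 1.55 at E50, and 0.918, 6.43 and 5.05 at E60, with 6 reads each in E60 libraries 2 and 3. Of the liver markers, all 8 were listed and summed to 18.2 to 38.2 FPKM at E40, 64.2 to 82.0 at E50, and 97.3, 34.9 and 91.4 at E60, nearly all of it APOA1 and SERPINA1, with ALB, AFP and APOA2 near 0 in every library. SERPINA1 had 1.04 to 1.96 FPKM at E40, 21.7 to 26.2 at E50, and 35.6, 11.9 and 23.0 at E60. Of the bone list, whose sums were 58.1 to 105 FPKM, RUNX2 was also highest at E40, with 27.9 to 38.0 FPKM against 5.06 to 5.67 at E50 and 3.55, 20.3 and 11.7 at E60, and BGLAP had 3.98 to 20.1, 2.57 to 3.06 and 1.51 to 2.38 FPKM. The cartilage list summed to 6.09 to 18.8 FPKM, the list for nerve and glia to 0.505 to 5.58, and the list for placenta and uterus, which includes PAPPA2, to 4.73 to 9.84. The part of these markers in the values of IGF1, IGFBP1, IGFBP3, IGFALS and PAPPA2 was not tested.

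**Figure D4:**
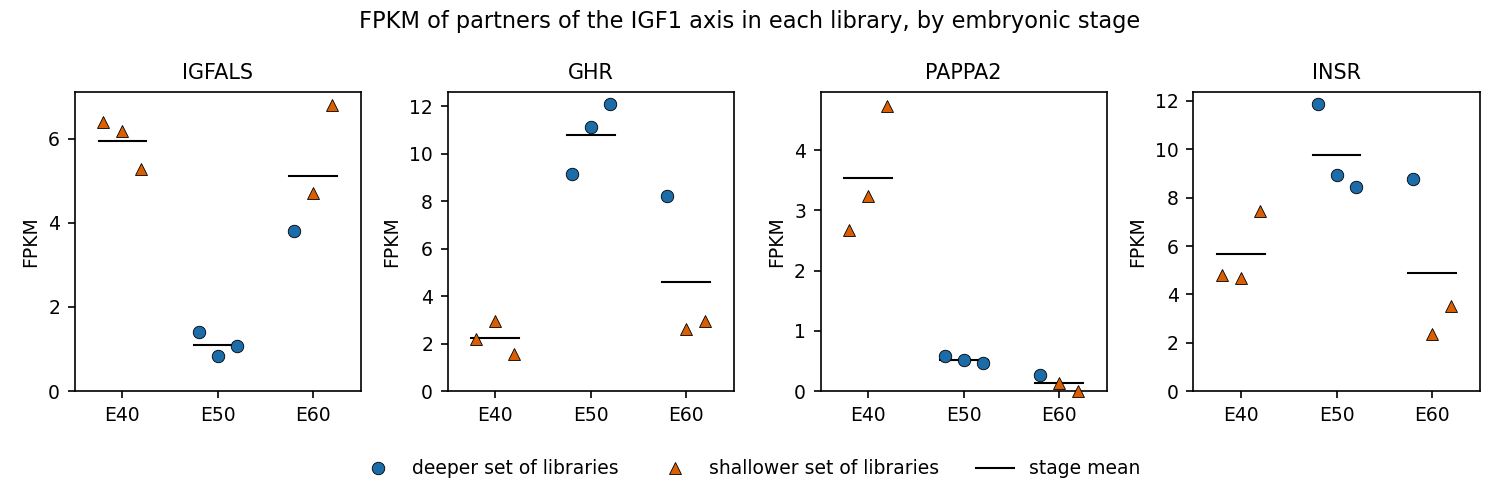
FPKM of the acid-labile subunit IGFALS, the growth hormone receptor GHR, the protease PAPPA2 and the insulin receptor INSR (vertical axes, starting at 0) in each library by embryonic stage; circles are the 4 libraries of the deeper set, triangles the 5 of the shallower set, and lines are stage means. IGFALS lies at 0.838 to 1.40 FPKM in the E50 libraries and at 3.81 to 6.81 FPKM elsewhere, and GHR in E60 library 1 (8.21 FPKM) lies nearer to the E50 libraries than to the other E60 libraries.

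Of 33 pathway genes reported beside the members, 27 were listed and 22 tested. From E40 to E50, 1 was called higher and 3 lower over the 9 libraries, and 6 higher and 4 lower without E60 library 1, with a median log2 fold change of 0.65 against 0.55 over all genes. Over all genes, 16.8% were called higher and 21.8% lower in the 9 libraries, and 30.5% and 24.2% in the 8, and nothing is read from the pathway counts. The higher call over the 9 libraries was GHR. The lower calls were IGFALS, PAPPA2 and the adaptor SHC1, which links receptors to MAPK signaling (log2 fold change -1.12, limma, Benjamini-Hochberg adjusted p = 0.0397).

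Leaving out E40 library 1, E50 library 2 or E50 library 3 ended the E40 to E50 calls of GHR and IGFALS, with an adjusted p in limma (Benjamini-Hochberg) between 0.0507 and 0.0627 and between 0.0501 and 0.0541. Leaving out any single E40 or E50 library ended those of PAPPA2 (0.0561 to 0.0836) and SHC1 (0.0715 to 0.132), and that of PAPPA2 between E40 and E60 (0.0626 to 0.0791).

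By class, from E40 to E50 the 5 tested adaptors had 0 higher and 1 lower call and the 9 tested kinases and downstream genes 0 in either direction in limma, with 2 at an unadjusted p under 0.05, and 0 in limma-voom. Between E50 and E60 none of the 22 was called in limma over the 9 libraries, with 7 at an unadjusted p under 0.05, while limma-voom called IGFALS higher (adjusted p = 0.0330, Benjamini-Hochberg). Without E60 library 1, 1 was called higher (IGFALS) and 13 lower, 8 of them among the 9 kinases and downstream genes, with a median log2 fold change of -1.42 against -0.94 over all genes, of which 20.0% were called higher and 39.1% lower. Median-ratio scaling of the same 8 libraries turned these counts to 3 higher (IGFALS, FOXO1 and SHC1) and 1 lower (GAB1), with no kinase or downstream gene lower. Within the deeper set, where E60 is a single library, the median log2 fold change of the 19 pathway genes tested was -0.08. Between E40 and E60 PAPPA2 alone was called, with and without E60 library 1, but it passed the filter only through E40, and within the shallower set it was not called (limma, Benjamini-Hochberg adjusted p = 0.0570).

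The genes whose course over the 9 libraries was most like that of each member were found by the mean absolute difference of log2(FPKM + 0.1), each gene centred on its own mean, among 11355 tested genes with a symbol. The libraries share their depth sets, so that this likeness is a description only. For IGF1 they were FHL5, at 0.17, and PAPSS2, a sulfation enzyme, at 0.23, where IGF1 itself ranged over 1.92. For IGF1R they were BCAT2 (0.05) and WDR55 (0.07), for IGFBP5 MTMR14 (0.08) and POLR2A (0.08), and 1948 and 2027 genes lay within 0.30 of these members. For IGFBP4 they were PDGFRB (0.17), a receptor of pericytes and mesenchyme, and UNG (0.19), with 123 genes within 0.30. For IGFBP6 they were KRT14 (0.12), the basal epithelial keratin, and POLR2I (0.16). For IGFBP7 they were DEF6 (0.14) and SLC35F3 (0.14), and for IGFBP3 RANBP9 (0.25) and BCAS1 (0.26), with 182 and 3 genes within 0.30. IGFBP1 had no gene within 0.30, the nearest being DYDC2 (0.31) and GK2 (0.35).

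PDGFRB gave 4.22, 7.06 and 5.98 FPKM at E40, 22.1, 16.6 and 18.6 at E50, and 10.6, 2.69 and 7.03 at E60, which ranks the libraries as IGFBP4 does except that E40 library 3 and E60 library 3 change places. KRT14 gave 715, 799 and 999 FPKM at E40, 503, 371 and 597 at E50, and 715, 330 and 1055 at E60, with the lowest value in E60 library 2 and the highest in E60 library 3, as for IGFBP6. Among the members themselves the closest pair was IGF1R and IGFBP5, at 0.12, followed by IGF1R and IGFBP7 at 0.34, while IGF1 and IGFBP4 lay 1.53 apart and IGF1 and IGF1R 0.89 apart.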

How the data were processed

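Reads were aligned and quantified by the authors, who deposited them as FPKM values. Whether libraries were scaled to each other afterwards is not given in the sources used here. The build in the submitters' processing notes is Sscrofa10.2. RefSeq positions, which belong to another build, were used only for gene names and neighbours. Whole reads were recovered from the steps between FPKM values (28961 of 28963 genes above 0, within 0.01 reads) as the smallest whole numbers that give the values. The floor was 3 reads, and intervals and floors cover counting error only.

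The filter kept genes whose FPKM reached 1 in 2 or more libraries. They were fitted in limma 3.58.1 (R 4.3.3) on log2(FPKM + 0.1), with stage as the factor and a mean-variance trend, and p-values were adjusted by Benjamini-Hochberg over 19618 genes (19493 without E60 library 1). The steps were checked on simulated data. Changes were planted there only in genes with many reads, so calls of changes in genes with few reads, such as IGF1, were not checked. Shares, levels and likeness were computed in Python 3.11.15 with numpy 2.4.6 and pandas 2.3.3.

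Named are the 9 members, the fixed pathway and marker lists by symbol, of which 1 pathway gene and 1 marker are not reported here and were left out of the list counts, and the 2 tested genes nearest to each member. The members and lists were chosen with earlier results of these data known. The methods speak of biological replicates within a condition but do not give the number of animals, so p-values measure the spread between these libraries. Alternatives were other pseudocounts, filters and scalings, a replicate block, a fit without trend, fits of the compared stages or of one depth set only, limma-voom on recovered reads, and leaving out each library.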

Additional observations from a re-analysis of the deposited data

How the results depend on the processing

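Depth limits IGF1, IGFBP1 and IGFBP3 most, since at E40 they rest on 10, 5 and 14 reads in all. Over 23 log2 fold changes of the members under 22 settings, the alternatives gave 469 values: 384 kept their direction and their side of the limits, 37 kept the direction but no longer passed, 16 newly passed and 32 changed sign. The cause of these changes was not tested.

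From E40 to E50, leaving out each library in turn gave 0 to 1 members higher and 0 to 3 lower, and without a filter on low values 1 was lower. From E50 to E60, the counts were 0 to 1 higher and 0 to 2 lower with each library left out, where only the fit without E60 library 1 made a call. After median-ratio scaling without that library 2 were higher and 1 lower, in limma-voom without it 1 higher and 1 lower, and within the deeper set 1 lower. From E40 to E60, the counts with each library left out were 0 to 1 higher and 0 to 2 lower. After median-ratio scaling 1 was higher, with and without E60 library 1. None was lower with a pseudocount of 0.01, with the filter on at least 5 libraries, with the compared stages only, within the shallower set, or in limma-voom without E60 library 1. Over all genes, leaving out each library gave 14 to 5937 genes higher and 43 to 4713 lower from E40 to E50, 3 to 3907 and 1 to 7622 from E50 to E60, and 45 to 454 and 69 to 913 from E40 to E60.

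With the replicate number as a block, 1 member was higher and 1 lower from E40 to E50, none from E50 to E60 and 0 lower from E40 to E60, and over all genes 1454 were higher and 3650 lower from E40 to E50. Across genes, the deviations of same-numbered libraries from their stage means correlated at -0.515 to 0.109, and 1 of 9 such pairs was over 0.1. Libraries of unlike number correlated at -0.378 to 0.423. Depth differs among the E60 libraries, so these correlations cannot decide whether the numbers pair libraries.

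Several log2 fold changes with no call changed sign. After median-ratio scaling, with and without E60 library 1, IGF1R was at -0.070 and -0.051 and IGFBP5 at -0.16 and -0.14 from E40 to E50. From E50 to E60 IGF1R was at 0.27 and 0.34, IGFBP3 at 0.54 and 0.57 and IGFBP5 at 0.067 and 0.049, and from E40 to E60 IGF1 at 0.10 and 0.48. In limma-voom IGFBP3 was at 0.33 from E50 to E60 (0.48 without E60 library 1), IGFBP4 at 0.018 from E40 to E60, and IGF1 at 0.23 from E40 to E60 without E60 library 1. Within the deeper set IGFBP3 was at 0.33, and within the shallower set IGF1 was at 0.055 and IGF1R at -0.14. With each library left out, the ranges from E50 to E60 were -0.43 to 0.26 for IGFBP3, -0.20 to 0.71 for IGFBP6 and -0.081 to 0.53 for IGFBP7. From E40 to E60 they were -0.10 to 0.055 for IGF1, -0.14 to 0.34 for IGF1R, -0.66 to 0.42 for IGFBP4, -0.52 to 0.079 for IGFBP5 and -0.75 to 0.16 for IGFBP6.

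As shares of recovered reads, not per length, IGFBP4 made up 10.1% at E40, IGFBP5 31.5%, 28.2% and 22.9% and IGFBP7 34.4%, 38.0% and 55.1% at E40, E50 and E60.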

Other observations

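The IGF2 mRNA binding proteins share a name with the IGFBP genes but bind RNA in the cytoplasm and are not IGF carriers. IGF2BP1 had 6.64 to 12.1 FPKM at E40, 17.2 to 19.5 at E50, and 8.78, 2.38 and 4.66 at E60. Its 3 E50 values lay above all others, E60 library 1 included. IGF2BP2 had 8.58 to 12.7, 21.9 to 25.7, and 20.4, 5.45 and 8.70 FPKM, and IGF2BP3 had 1.19 to 8.49, 14.4 to 15.8, and 14.0, 3.62 and 9.23 FPKM. None was called over the 9 libraries in limma, with an adjusted p between 0.0584 and 0.103 from E40 to E50 after Benjamini-Hochberg adjustment, and 2 of the 3 had an unadjusted p under 0.05 there. Without E60 library 1 all 3 were called higher from E40 to E50 (limma, Benjamini-Hochberg adjusted p = 0.0195, 0.00328 and 0.0315), and IGF2BP1 and IGF2BP2 lower from E50 to E60. After median-ratio scaling of those 8 libraries none was called from E40 to E50 in limma, with 1 of the 3 at an unadjusted p under 0.05, and IGF2BP1 alone was called lower from E50 to E60. Within the deeper set E60 is a single library. There the log2 fold change from E50 to E60 was -1.03 for IGF2BP1, -0.25 for IGF2BP2 and -0.10 for IGF2BP3.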
